A study of Mus musculus with 9 samples.

Results

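RAW 264.7 cells given pamidronate were compared with RAW 264.7 cells without it, across all genes of the raw count table. The 3 pamidronate libraries and the 3 control libraries, chosen by the treatment in their labels, are 6 of the 9 libraries in the series. Of 49315 genes in the table, 15963 had enough counts to be tested. RAW 264.7 is an established line of mouse macrophages, and RANKL, a cytokine of the TNF family, can turn such cells into osteoclast-like cells. The growth notes give every sample RANKL at 20 ng/ml after 24 h in 24-well plates, while the control titles speak of no treatment, so whether the controls received RANKL cannot be told from the labels. Pamidronate at 140 µM was added after a total of 48 h and the cells were collected 24 h later. The other 3 libraries came from cells given 140 µM pamidronate with 5.25 µM geranylgeraniol (GGOH), and their levels are set beside the main ones at the end. All 9 libraries carry the same batch label. Biological replication is named only in the control titles. The labels do not say whether the pamidronate samples came from separate cultures, so the p-values measure the spread between these samples, which may be technical.

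Pamidronate is a nitrogen-containing bisphosphonate, a class of drug taken up by bone-resorbing osteoclasts and other phagocytes. It inhibits farnesyl diphosphate synthase, an enzyme of the mevalonate pathway that makes both the precursor of cholesterol and the isoprenoid lipids attached to small GTPases. GTPases such as Rac and Rab need that lipid anchor to sit in membranes, where they organise the actin cytoskeleton and vesicle traffic. The comparison addressed how the transcripts of these cells differed with the drug present.

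Library totals ran from 16943250 to 18957968 counts in the controls and from 16444207 to 16644139 with pamidronate. The macrophage identity given by the labels was checked with 18 marker genes, all of which were detected. Their summed level was 21200 to 25500 CPM (counts scaled to library size with TMM factors) in the controls and 7310 to 9520 CPM with pamidronate. Markers of B cells summed to at most 1.67 CPM in any of the 6 libraries, those of T cells to at most 11.6, those of neutrophils and mast cells to at most 1.71, and those of fibroblasts and osteoblasts to at most 1.96. Markers of epithelial and endothelial cells summed to 1.23 to 1.57 CPM in the controls and 5.87 to 8.05 CPM with pamidronate, and neuronal and muscle markers summed to at most 7.43 CPM. Ms4a1, Fcer1a, Mcpt4, Emcn, Myod1 and Calcr had 0 counts in all 6 libraries. Of 10 mature osteoclast markers 7 could be tested, of which 4 were called higher, 1 lower and 2 were not called. The summed level of the 10 was 217 to 247 CPM in the controls and 349 to 495 CPM with pamidronate. The rise in that sum rests largely on Atp6v0d2, at 56.4, 63.0 and 55.3 CPM in the controls and 282, 329 and 204 CPM with pamidronate. In bulk RNA, fewer cells of a type and less of a transcript per cell cannot be told apart. The control libraries differed from each other in genes of the cell cycle, among others, where replicate 1 stood apart. Ccna2, the cyclin of S phase, measured 15.8 CPM in control replicate 1 and 67.5 and 87.9 CPM in the others. Outside the cell cycle, control replicate 1 had 22349 genes detected against 20611 and 20558. Maf, a transcription factor, measured 17.9 CPM in it and 46.6 and 40.8 CPM in the other controls.

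Pamidronate went with a change in most of the measured transcriptome. At an adjusted p under 0.05, 11042 of the 15963 genes tested were called, 69.2% of them. Of these, 5784 rose (36.2%) and 5258 fell (32.9%). At least 2-fold apart and called were 6047 genes (37.9%), with 3439 higher and 2608 lower, and 2255 genes (14.1%) were at least 4-fold apart. The libraries of the groups did not overlap for 11717 genes (73.4%). Without control replicate 1 the count of called genes was 11154. Against such a background a call on its own says little about a gene or a list, and the sizes and directions below are read beside a median log2 fold change of 0.08 over all genes tested. With upper-quartile scaling that median was 0.28, a shift of 0.19 that applies to every fold change below. Another 3099 genes were not called and had a 95% interval that lay inside a 2-fold change either way. The remaining 1822 uncalled genes had intervals that reached a 2-fold change.

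**Figure D1:**
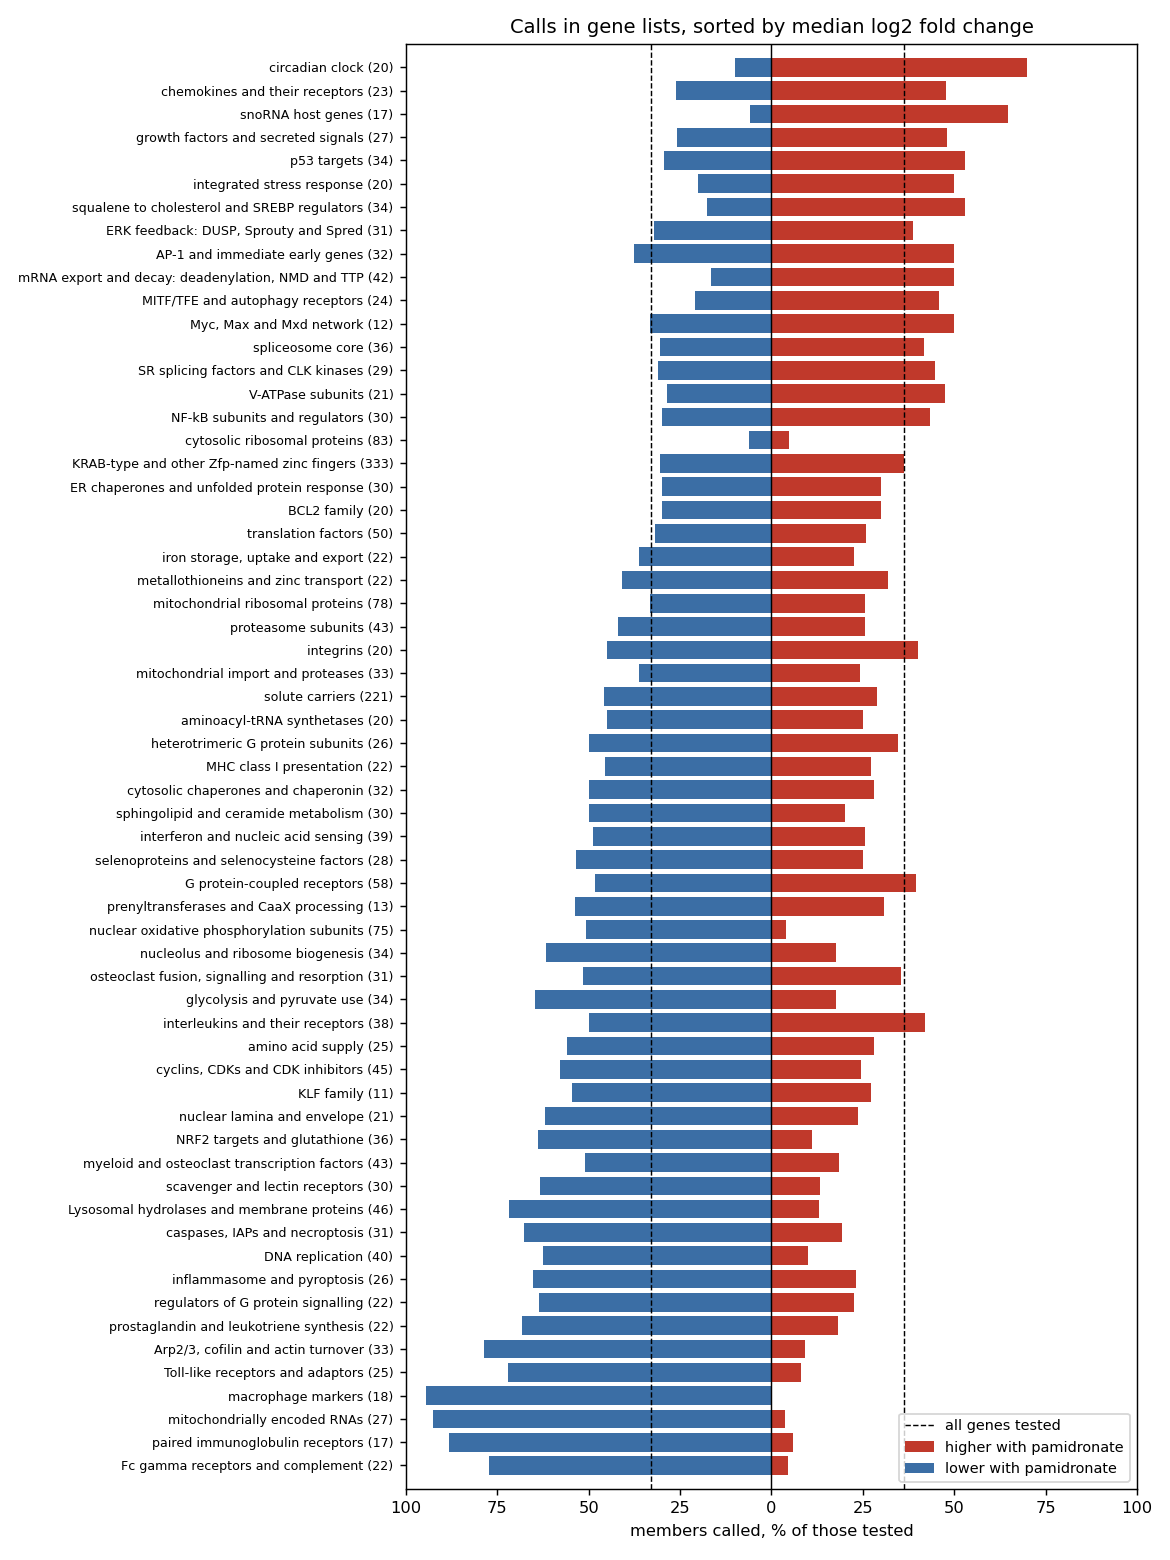
Bars give the percent of tested members of each gene list drawn called higher (right) or lower (left) with pamidronate, with the number tested in brackets, sorted by median log2 fold change, and the dashed lines mark 36.2% and 32.9%, the shares over all genes tested. The circadian clock list lies at the top with 14 of 20 members higher, and the list of Fc gamma receptors and complement lies at the bottom with 17 of 22 lower.

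The direction of change followed the class of RNA. Among protein-coding genes 3977 of 12285 rose and 4906 fell, with a median log2 fold change of -0.09. Among long intergenic noncoding RNAs 249 of 464 rose and 54 fell, with a median of 0.92. Antisense RNAs had 371 of 722 higher and 53 lower, processed pseudogenes 255 of 631 higher and 56 lower, and small nuclear RNAs 53 of 87 higher and 3 lower. The level of a gene went with its direction too. Coding genes of the lowest quintile by mean level, under 3.74 CPM, had a median of 0.70 and 1090 of 2457 members higher. That quintile can hold genes that passed the filter on low counts through the treated libraries alone. It also held 2600 of the noncoding RNAs and pseudogenes tested, with a median of 0.89. Mean level was taken over all 9 libraries, treated ones included, so the match in level draws on the treated libraries too. Within the next quintile, between 3.74 and 14 CPM, coding genes had a median of -0.18 while noncoding RNAs and pseudogenes of the same level had 323 of 501 higher and a median of 0.96. By median, the noncoding class lay above the coding class in each of the lower 4 quintiles, but not in the highest, where 7 of 23 rose and 8 fell. Upper-quartile scaling gave a coding median of 0.11, so the sign of that median depends on the scaling. Noncoding RNAs and pseudogenes of the lower 4 quintiles had medians above 0 under both scalings, and those of the highest quintile had a median of -0.22, or -0.02 with upper-quartile scaling. The kit used removes ribosomal RNA from total RNA and does not select polyadenylated RNA, so nuclear and unspliced transcripts are counted as well.

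**Figure D2:**
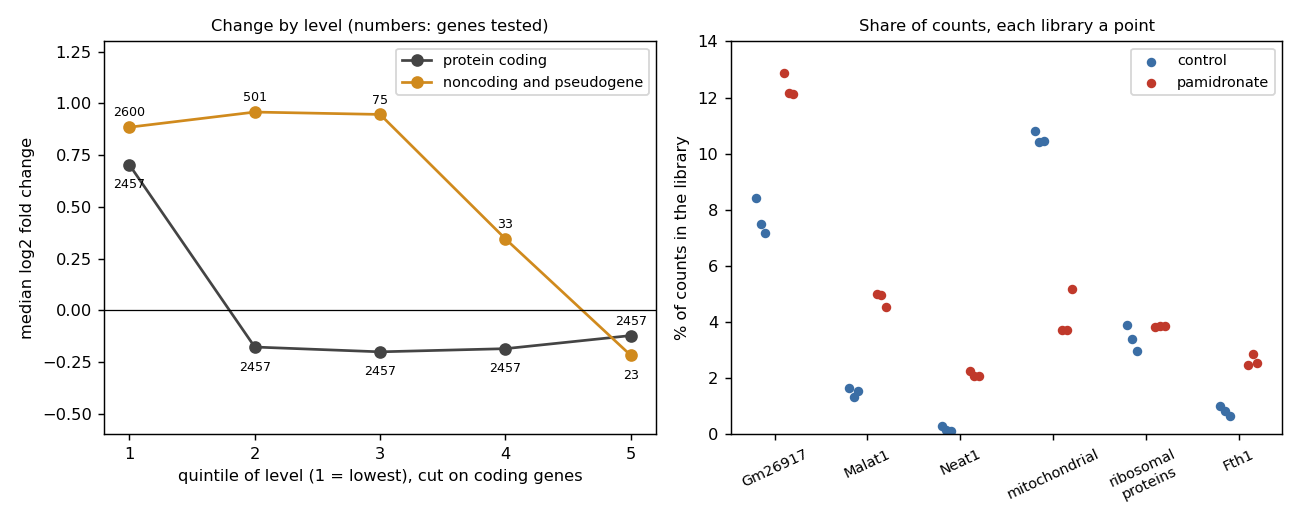
The left panel plots the median log2 fold change of coding genes and of noncoding RNAs and pseudogenes in 5 bins of mean level cut on the coding genes, with the number of genes beside each point, and the right panel plots the percent of each library's counts taken by 6 transcripts or classes. The noncoding line lies above the coding line in the lower 4 bins, and each of Malat1, Neat1 and Fth1 takes a larger share in all 3 pamidronate libraries than in any control.

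Neat1, the noncoding RNA scaffold of nuclear paraspeckles, and Malat1, an abundant nuclear noncoding RNA of speckles, are neighbours on chromosome 19 (GRCm38, chr19:5824708-5845478 and chr19:5795690-5802672, both on the minus strand). Neat1 measured 3214, 1561 and 1137 CPM in the controls and 22970, 21600 and 21060 CPM with pamidronate. Malat1 measured 18430, 14280 and 16160 CPM in the controls and 50770, 51950 and 46090 CPM with the drug. Neither gene's groups overlapped, although control replicate 1 held at least 2-fold more Neat1 than the other controls. On the log2 scale Neat1 rose by 3.47 ± 0.38 (SE, adjusted p = 4.09e-05) and Malat1 by 1.61 ± 0.15 (SE, adjusted p = 3.36e-07).

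Small nuclear and nucleolar RNA genes are too short and repeated for counts of them to be certain, but the genes that host snoRNAs in their introns can be followed. Of 17 tested genes in the list of such hosts 11 rose and 1 fell, with a median of 0.77. The list also holds Rnu12, named for the U12 small nuclear RNA, which was among those that rose (0.312 to 1.14 CPM). Snhg1, Snhg15 and Gas5 are annotated as processed transcripts, a class with 146 of 275 higher, 31 lower and a median of 0.68. The median of the list lay near the median of that class. Snhg1 rose from 34.5 ± 2.96 to 109 ± 10.8 CPM (SD, n = 3 each) and Snhg15 from 13.9 ± 1.23 to 46.8 ± 2.06 CPM (SD, n = 3 each). Gas5, the host best known as a growth-arrest transcript, was not called, at 50.5 ± 9.59 against 59.1 ± 4.17 CPM (SD, n = 3 each), and its 95% interval ran from -0.03 to 0.48 on the log2 scale, but it was called higher without control replicate 1 (adjusted p = 0.00463), with a replicate block (0.047), with the stricter filter on low counts (0.0183) and with upper-quartile scaling (0.00926). Among kinases of splicing factors, Clk1 rose by 1.19 ± 0.08 and Clk2 by 1.13 ± 0.08 (log2 fold change ± SE, adjusted p = 2.1e-08 and 4.14e-08). The list of SR splicing factors and CLK kinases as a whole had 13 of 29 higher and 9 lower, or 16 and 6 with upper-quartile scaling. Srsf6, an SR protein, fell by 1.32 ± 0.15 and Luc7l, a U1 snRNP-associated factor, rose by 1.51 ± 0.10 on the log2 scale (SE).

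Cytosolic ribosomal proteins were seldom called when all libraries were used with TMM scaling. Of 83 tested, 4 were called higher and 5 lower, and all 74 uncalled members had 95% intervals inside a 2-fold change. Their median, 0.08, equalled that of all genes. Under upper-quartile scaling 43 of the 83 were called higher and 1 lower. Without control replicate 1, 35 were called higher and 2 lower, with a median of 0.21. Whether this class is flat or higher thus depends on the scaling and on that library. Many of these genes have processed pseudogenes that can share their reads. A further 6 genes of at least 100 CPM, taken by rule for the narrowest intervals around 0, were Atp6v0b, Pcbp1, Afdn, Degs1, Psmd2 and Mindy2. All 6 were called higher with upper-quartile scaling, at log2 fold changes of 0.18 to 0.20. Degs1, a desaturase of ceramide synthesis, measured 157, 166 and 164 CPM in the controls and 156, 168 and 163 CPM with pamidronate. Psmd2, a subunit of the proteasome's regulatory particle, had an interval of -0.17 to 0.17 on the log2 scale.

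Among genes of at least 100 CPM in either group, Pgf and Rgs1 were among the largest rises. Pgf encodes placental growth factor, a relative of VEGF, and lies at chr12:85166639-85177296 on the minus strand. Its level was 1.58, 1.18 and 0.556 CPM in the controls and 197, 191 and 210 CPM with pamidronate. Rgs1, a GTPase-activating protein for G protein alpha subunits at chr1:144242296-144249242 on the minus strand, measured 23.6, 20.6 and 24.8 CPM against 849, 995 and 843 CPM. Control and treated libraries were far apart for both genes, and the treated replicates lay close together. The fitted rise was 178-fold for Pgf (log2 fold change 7.48 ± 0.52, SE, adjusted p = 9.98e-06) and 39.0-fold for Rgs1 (5.29 ± 0.35, SE, adjusted p = 3.47e-06). Rgs1 went against the list that holds it, regulators of G protein signalling, which was not restricted to RGS proteins. Of its 22 tested members 14 fell and 5 rose.

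Ptpn14, a tyrosine phosphatase, rose 32.4-fold and Msh3, a mismatch repair protein, rose 12.1-fold. Sgk1, a kinase induced by serum and glucocorticoids, rose from 7.98 ± 2.53 to 112 ± 24.9 CPM (SD, n = 3 each). Ccnf, the F-box protein cyclin F, measured 10.1, 22.8 and 25.6 CPM in the controls and 249, 240 and 309 CPM with pamidronate. That rise stood against the list of cyclins, CDKs and their inhibitors, in which 26 of 45 fell and 11 rose. Ttn, the giant sarcomere protein of muscle, rose from 9.03 ± 0.89 to 144 ± 19.4 CPM (SD, n = 3 each).

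Lipid droplet and ferritin genes were among those that gained most. Plin2, the coat protein of lipid droplets, measured 191, 227 and 229 CPM in the controls and 1756, 1973 and 2287 CPM with pamidronate. Hilpda, a small protein that inhibits lipolysis at droplets, measured 6.07, 5.32 and 5.75 CPM against 145, 154 and 188 CPM. Both genes were separated between groups by several times the replicate spread, at log2 fold changes of 3.22 ± 0.16 and 4.83 ± 0.27 (SE, adjusted p = 2.99e-09 and 4.6e-07). Fth1, the ferritin heavy chain that stores iron, measured 11300, 8710 and 6947 CPM against 24990, 29850 and 25960 CPM, a log2 fold change of 1.58 ± 0.17 (SE). Ftl1, the light chain, rose by 1.46 ± 0.32 (SE, adjusted p = 0.00309), and its exons overlap the opposite-strand gene Gm10252. Both chains have processed copies in the genome, so their counts carry that uncertainty. Slc11a2, a transporter of ferrous iron, rose from 65.2 ± 3.49 to 159 ± 8.88 CPM (SD, n = 3 each). Over the whole iron list 5 of 22 rose and 8 fell, with a median of -0.03. With upper-quartile scaling 11 rose and 6 fell, with a median of 0.17. Ago2, the Argonaute protein that carries microRNAs, also gained, from 699 ± 54.0 to 3042 ± 328 CPM (SD, n = 3 each).

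The sialic acid receptors Siglec1 and Cd33 were among the genes with the largest falls. Siglec1, also known as CD169, lies at chr2:131069220-131086765 on the minus strand. It measured 248, 434 and 430 CPM in the controls and 5.74, 3.92 and 5.39 CPM with pamidronate. Cd33 measured 478, 577 and 642 CPM against 28.9, 29.5 and 24.9 CPM. Every control library lay well above every pamidronate library for both, with falls of 73.7-fold and 20.4-fold (adjusted p = 3.83e-05 and 1.71e-07). The neighbouring genes Tmem176a and Tmem176b (chr6:48840919-48847071 on the plus strand and chr6:48833818-48841496 on the minus strand) both fell 24.8-fold. Their gene spans overlap at their starts, and strandedness of the counts is not given in the sources used here. Rnase4, a secreted ribonuclease that shares exons with Ang, fell 26.7-fold. Ranbp3l, a Ran-binding protein, fell 66.1-fold, with control levels spread from 73.1 to 224 CPM.

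**Figure D3:**
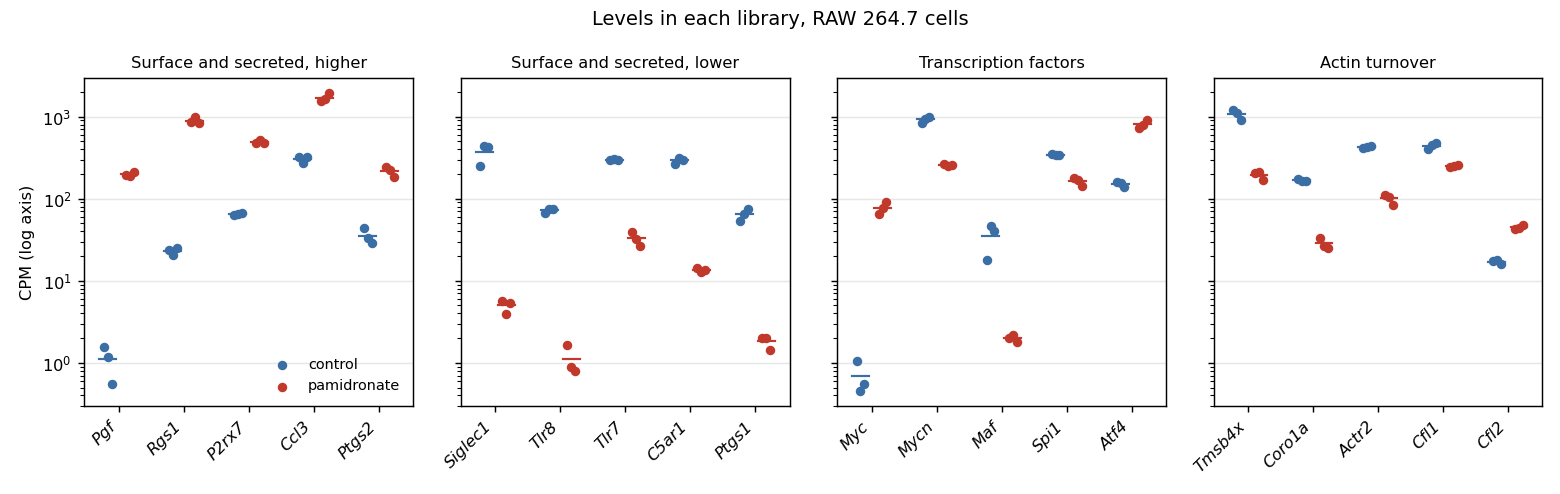
Each point is the CPM of 1 library on a log axis, blue for the 3 controls and red for the 3 pamidronate libraries, and each short line is a group mean. For all 20 genes drawn the red and blue points do not overlap, and Myc and Mycn move in opposite directions.

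Receptors for opsonised particles fell almost as a group. Of 22 tested members of the Fc gamma receptor and complement list 17 fell and 1 rose, with a median of -2.15, which remained -1.95 with upper-quartile scaling. C5ar1, the receptor for complement C5a, measured 268, 316 and 296 CPM in the controls and 14.2, 12.8 and 13.7 CPM with pamidronate. Its groups did not overlap, and the fall was 21.6-fold (adjusted p = 2.99e-09). The member that rose was Cfb, complement factor B, at a log2 fold change of 0.99, and its call was lost under 10 of its alternatives, among them each control replicate left out (adjusted p = 0.0765 to 0.107).

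Paired immunoglobulin-like receptors, which tune myeloid activation, had 15 of 17 lower and 1 higher, with a median of -2.08. The member that rose was Lilrb4a, an inhibitory receptor, at 660, 682 and 925 CPM in the controls and 1557, 1522 and 1484 CPM with pamidronate. Lilrb4a has a near-identical neighbour, so its reads may be shared. Of 19 genes of the Ms4a family of tetraspan proteins 5 had enough counts to be tested, which a gene can reach without the pamidronate libraries. All 5 fell, with a median of -6.23. Ms4a6b and Ms4a6d, on chromosome 19 (chr19:11516512-11531256 on the plus strand and chr19:11586604-11604849 on the minus strand), fell 75.3-fold and 31.1-fold. With pamidronate Ms4a6b held 20 counts in all, near the floor, so the size of its fall is uncertain. Among scavenger and lectin receptors 19 of 30 fell and 4 rose. Clec4a1, a C-type lectin, went from 22.8 ± 2.00 to 0.415 ± 0.148 CPM, and Clec5a, an activating lectin, from 170 ± 20.6 to 13.9 ± 1.97 CPM (SD, n = 3 each).

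Toll-like receptors sense microbial lipids and nucleic acids. Of 25 tested receptors and adaptors 18 fell and 2 rose, with a median of -1.47. The adjacent endosomal receptors Tlr7 and Tlr8 lie on the X chromosome (chrX:167304929-167330558 and chrX:167242696-167264329, both on the minus strand). Tlr7 measured 300, 300 and 298 CPM in the controls and 39.2, 32.5 and 26.6 CPM with pamidronate. Tlr8 measured 66.8, 75.7 and 75.1 CPM against 1.65, 0.885 and 0.805 CPM. These 2 sensors of single-stranded RNA both fell with no overlap, Tlr7 9.14-fold and Tlr8 64.5-fold (adjusted p = 4.9e-08 and 7.05e-06). Tlr2, the receptor for lipopeptides, fell 13.5-fold. The members that rose were Irak2, a kinase of the receptor complex, by 1.62 ± 0.15, and Tollip, an adaptor that dampens signalling, by 1.16 ± 0.09 (log2 fold change ± SE). Exons of Irak2 overlap the antisense-strand gene Gm43963.

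Genes downstream of inflammatory signalling did not share a direction. Chemokines and their receptors had 11 of 23 higher and 6 lower, with a median of 0.88. Ccl3, a chemoattractant for monocytes, measured 320, 269 and 321 CPM in the controls and 1535, 1656 and 1923 CPM with pamidronate. Ccl4, a related chemokine, rose 3.37-fold, and Ccrl2, an atypical chemokine receptor, rose 10.6-fold. Ccl9, made by macrophages and osteoclasts, measured 133, 203 and 270 CPM against 22.4, 23.5 and 18.6 CPM. Libraries of the groups were separate for all 4 of these genes, with 3 higher and 1 lower.

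Interleukins and their receptors were split, with 16 of 38 higher and 19 lower. Il1rn, the antagonist of the interleukin-1 receptor, rose from 47.1 ± 12.3 to 328 ± 77.0 CPM, and Il6ra, the interleukin-6 receptor chain, fell from 116 ± 9.38 to 8.89 ± 1.43 CPM (SD, n = 3 each). Tnf changed little, at 117, 120 and 136 CPM in the controls and 159, 167 and 172 CPM with pamidronate. That rise of 0.42 ± 0.12 (log2 fold change ± SE, adjusted p = 0.00642) was no longer called without control replicate 2 (adjusted p = 0.0582). Tnfaip3, the A20 protein that limits NF-kB, rose by 1.85 ± 0.17 (SE), in a list of NF-kB subunits and regulators with 13 of 30 higher and 9 lower, or 16 and 5 with upper-quartile scaling. Inflammasome and pyroptosis genes had 17 of 26 lower and 6 higher, with a median of -0.90. Casp1, the protease that matures interleukin-1 beta, fell 3.20-fold, while P2rx7, the ATP-gated channel upstream of it, rose from 64.8 ± 2.06 to 490 ± 23.9 CPM (SD, n = 3 each).

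Enzymes of prostaglandin and leukotriene synthesis had 15 of 22 lower and 4 higher. Ptgs1, the constitutive cyclooxygenase, measured 53, 65.5 and 75.6 CPM in the controls and 2.02, 2.02 and 1.43 CPM with pamidronate. Ptgs2, the inducible cyclooxygenase, measured 44.4, 33.5 and 28.8 CPM against 241, 221 and 182 CPM. The 2 isoenzymes moved in opposite directions without overlap, Ptgs1 by -5.14 ± 0.28 and Ptgs2 by 2.59 ± 0.18 on the log2 scale (SE, adjusted p = 1.2e-07 and 3.62e-07). Alox5, the lipoxygenase that starts leukotriene synthesis, fell 13.6-fold.

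In the mevalonate and cholesterol pathway most called members rose. Of 34 members of the cholesterol and SREBP list 18 rose and 6 fell, with a median of 0.30. Msmo1, a methylsterol oxidase, measured 54.0, 33.7 and 35.7 CPM in the controls and 158, 160 and 182 CPM with pamidronate. Its treated libraries lay above every control, at 4.05-fold (adjusted p = 0.000219). Srebf2, the transcription factor that drives the pathway, rose by 0.94 ± 0.14 (SE), and Srebf1, its relative in fatty acid synthesis, was not called, with an interval of -0.27 to 0.10. Scap, the escort that brings these factors to the Golgi, fell by 1.18 ± 0.13, and Mylip, a ubiquitin ligase, fell by 2.10 ± 0.26 on the log2 scale (SE). Enzymes of the pathway were among the falls too, with Mvk at -0.99 ± 0.24 and Ebp at -0.91 ± 0.16 (log2 fold change ± SE). Promoters of this pathway are known for the sterol regulatory element bound by SREBP. The RefSeq windows from 250 bases before to 50 bases after the start held the element TCACNCCAC, on either strand, for 1 of 25 tested members with a window, Hmgcs1, which encodes HMG-CoA synthase and rose 5.51-fold. Over all 19678 windows 1.26% held it. The 250 bases before the start of Hmgcs1 are shown because they carry this element, in capitals (GRCm38.p6, chr13:119690101-119690350, plus strand, sequence from RefSeq).
Hmgcs1: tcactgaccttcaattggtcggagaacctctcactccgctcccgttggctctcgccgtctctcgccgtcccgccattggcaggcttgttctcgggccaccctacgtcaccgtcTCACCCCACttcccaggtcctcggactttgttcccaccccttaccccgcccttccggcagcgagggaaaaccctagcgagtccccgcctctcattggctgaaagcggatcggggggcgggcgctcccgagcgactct

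**Figure D4:**
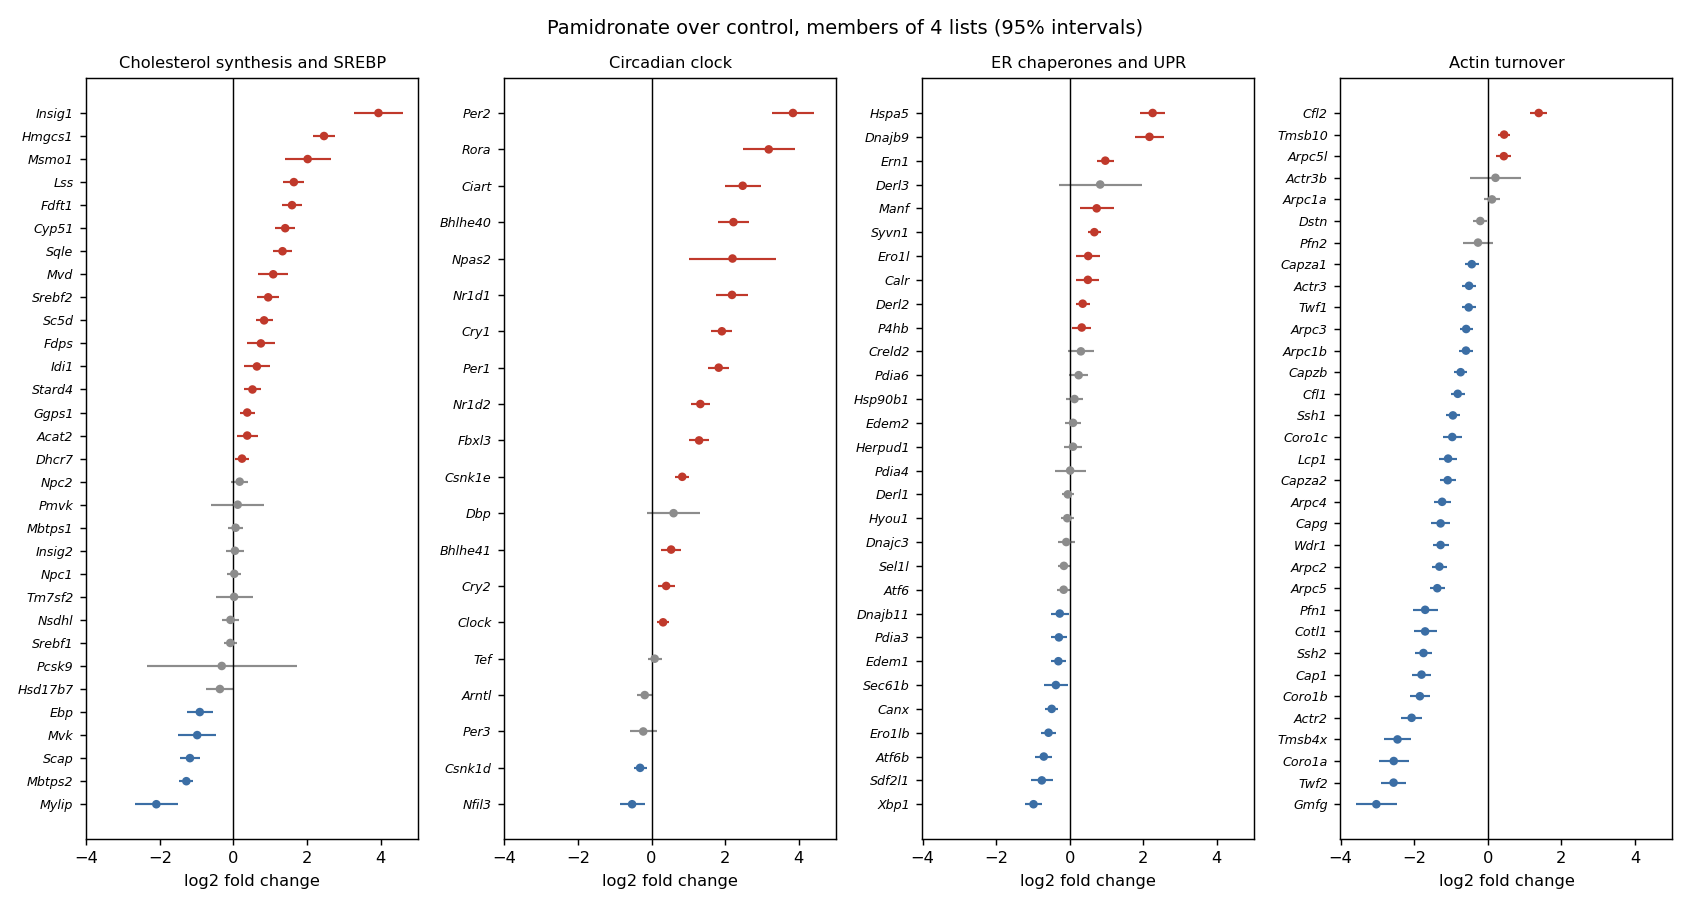
Each point is the log2 fold change of pamidronate over control for 1 plotted member of 4 gene lists, with its 95% interval, red where called higher, blue where called lower and grey where not called. The clock panel has 14 members called to the right and 2 called to the left, and the actin turnover panel has 26 called to the left and 3 to the right.

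Enzymes that attach and trim isoprenoid lipids were split, with 4 of 13 higher and 7 lower, or 6 and 4 with upper-quartile scaling. Icmt, which methylates the prenylated end of a protein, measured 40.9, 37.1 and 43.8 CPM in the controls and 75.1, 73.9 and 72.9 CPM with pamidronate. Pggt1b, the beta subunit of the type I enzyme that adds geranylgeranyl, rose by 0.67 ± 0.10, and Rabggtb, the beta subunit of the Rab-specific enzyme, by 0.80 ± 0.13 (log2 fold change ± SE, adjusted p = 3.25e-05 and 6.19e-05). Farnesyltransferase was not called in either subunit: Fnta had an interval of -0.11 to 0.31 and Fntb of -0.03 to 0.60. With upper-quartile scaling both were called higher (adjusted p = 0.0165 and 0.00864). Zmpste24, the protease that matures prelamin A, measured 85.2, 103 and 114 CPM against 44.2, 40.3 and 34.2 CPM. Its substrate's gene Lmna fell from 178 ± 18.2 to 62.0 ± 7.49 CPM (SD, n = 3 each). Rap1gds1, a chaperone of prenylated GTPases, fell 3.24-fold. Rce1, the protease that removes the last 3 residues of a CaaX box, fell by 0.43 ± 0.14 (SE, adjusted p = 0.0121), a call that was lost with upper-quartile scaling (adjusted p = 0.144) and with the stricter filter (adjusted p = 0.0736).

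Exchange factors load small GTPases with GTP. Fgd4, an exchange factor for Cdc42, measured 152, 182 and 187 CPM in the controls and 20.9, 21.2 and 18.4 CPM with pamidronate. Dock8, a Cdc42 exchange factor of leukocytes, measured 263, 260 and 267 CPM against 82.7, 81.5 and 63.3 CPM. The falls of 8.61-fold and 3.47-fold lay outside the replicate spread of either group. Fgd2 fell 18.7-fold and Spata13, which acts on Rac and Cdc42, fell 6.91-fold.

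GTPase-activating proteins and dissociation inhibitors switch such GTPases off or hold them in the cytosol. Arhgap15 fell 17.3-fold and Arhgap31 14.2-fold. Arhgdib, the leukocyte form of the inhibitor, fell 3.95-fold, against 1.55-fold for the widely expressed Arhgdia. Rhov, an atypical GTPase, rose from 1.35 ± 0.0518 to 13.4 ± 1.46 CPM (SD, n = 3 each).

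Several proteins that act downstream of Rac and Cdc42 were called. Cybb, the catalytic subunit of the phagocyte NADPH oxidase that Rac activates, measured 2316, 1991 and 2035 CPM in the controls and 445, 416 and 264 CPM with pamidronate. Was, the Wiskott-Aldrich protein of blood cells, measured 49.4, 56.2 and 47.8 CPM against 12.7, 8.79 and 9.29 CPM. Its widely expressed relative Wasl measured 59.6, 53.6 and 52.0 CPM against 152, 174 and 166 CPM. The pair thus moved apart, by -2.31 ± 0.15 for Was and 1.57 ± 0.13 for Wasl on the log2 scale (SE, adjusted p = 1.73e-08 and 1.42e-07). Diaph2, a formin that elongates actin filaments, fell 5.31-fold.

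Actin turnover fell as a group. Of 33 tested members of the Arp2/3, cofilin and actin turnover list 26 fell and 3 rose, with a median of -1.08 that was -0.88 with upper-quartile scaling. Tmsb4x, the thymosin that holds actin monomers, measured 1208, 1096 and 921 CPM in the controls and 204, 214 and 170 CPM with pamidronate. Actr2, a core subunit of the Arp2/3 nucleator, measured 415, 422 and 433 CPM against 112, 106 and 84.4 CPM. Coro1a, the coronin of leukocytes, measured 173, 164 and 164 CPM against 33.6, 26.6 and 25.1 CPM. Each was lower in all 3 treated libraries, by 5.48-fold, 4.20-fold and 5.88-fold. Twf2, a twinfilin that caps filaments, fell 5.90-fold. The cofilins, which sever filaments, moved apart: Cfl1 fell by 0.82 ± 0.09 and Cfl2, the muscle form, rose by 1.39 ± 0.11 (log2 fold change ± SE). Per exon length, in the authors' TPM values, Cfl1 nonetheless remained the more abundant, at a mean of 266 TPM against 37.8 TPM for Cfl2 with pamidronate.

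Integrins were split, with 8 of 20 higher and 9 lower. Itgal, the alpha chain of LFA-1, fell from 29.5 ± 7.52 to 1.66 ± 0.329 CPM, and Itgb3, a chain of the vitronectin receptor of osteoclasts, rose from 1.53 ± 0.435 to 8.04 ± 0.796 CPM (SD, n = 3 each).

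Myc and Mycn, growth-promoting transcription factors of the same family, moved in opposite directions. Myc (chr15:61985391-61990374, plus strand) measured 1.05, 0.448 and 0.556 CPM in the controls and 65.0, 76.0 and 91.7 CPM with pamidronate. Mycn (chr12:12936096-12941914, minus strand) measured 845, 948 and 992 CPM against 266, 252 and 254 CPM. The log2 fold changes were 6.81 ± 0.48 for Myc and -1.85 ± 0.11 for Mycn (SE, adjusted p = 4.82e-06 and 5.01e-09), with no overlap for either. Mycn stayed the more abundant per exon length, at 194 TPM against 70.7 TPM for Myc in the treated group's means. Mxd1, a repressor that competes for the shared partner, rose from 16.9 ± 2.59 to 56.7 ± 7.89 CPM (SD, n = 3 each).

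Transcription factors of the myeloid lineage were more often lower than higher, with 22 of 43 lower, 8 higher and a median of -0.67. With upper-quartile scaling 21 were lower and 13 higher. Maf, a factor of differentiated macrophages, measured 17.9, 46.6 and 40.8 CPM in the controls and 2.02, 2.21 and 1.80 CPM with pamidronate. Its groups did not overlap, with a fall of 17.4-fold. Spi1, which encodes the lineage factor PU.1, fell by a smaller 1.07 ± 0.12, and Irf8 by 1.19 ± 0.12 on the log2 scale (SE). Ikzf1, Fli1 and Lyl1, factors of early blood cells, fell 5.60-fold, 6.87-fold and 8.57-fold. Klf2, a factor of quiescent monocytes, fell 5.43-fold while Klf6 rose 1.85-fold.

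Phosphatases that switch off MAP kinases moved both ways. Dusp6, a cytoplasmic phosphatase for ERK, measured 63.3, 85.0 and 83.9 CPM in the controls and 4.34, 6.58 and 3.78 CPM with pamidronate. Dusp4, a nuclear phosphatase, measured 42.4, 30.9 and 31.8 CPM against 268, 323 and 321 CPM. The nuclear Dusp1 measured 8.59, 9.13 and 12.1 CPM against 83.2 to 120 CPM. All 3 genes were separated between groups, with Dusp6 lower and the nuclear forms higher. Spred1, a membrane inhibitor of Ras, fell 5.49-fold, and the list as a whole had 12 of 31 higher and 10 lower, or 17 and 9 with upper-quartile scaling.

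Genes of the circadian clock had the highest median of the lists drawn. The clock is a feedback loop in which Clock and Arntl drive the Per and Cry repressors through E-boxes, with Nr1d and Rora acting on Arntl in turn. Of 20 members tested 14 rose and 2 fell, with a median of 1.06, and with upper-quartile scaling 15 rose and 0 fell. Per1 measured 92.6, 72.4 and 59.8 CPM in the controls and 265, 279 and 252 CPM with pamidronate. Per2 measured 6.95, 6.21 and 3.46 CPM against 76.6, 87.2 and 76.1 CPM. Cry1 measured 8.70, 8.85 and 10.1 CPM against 31.5, 35.1 and 37.5 CPM. These 3 repressors were higher in every treated library, at log2 fold changes of 1.82 ± 0.13, 3.84 ± 0.25 and 1.91 ± 0.13 (SE, adjusted p = 4.18e-08, 5.12e-07 and 2.36e-08).

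The other Per and Cry genes moved less. Cry2 rose by 0.40 ± 0.11 (log2 fold change ± SE), and Per3 was not called, with an interval of -0.60 to 0.15. Nfil3, a repressor of clock output, fell by 0.53 ± 0.16 (log2 fold change ± SE, adjusted p = 0.00815). Bhlhe40, which competes for E-boxes, rose 4.68-fold, and Ciart, a repressor of the same loop, rose 5.57-fold. Nr1d1 and Nr1d2, the REV-ERB receptors, rose 4.55-fold and 2.51-fold, and Rora, the activator that opposes them, rose 9.10-fold. The activators Clock and Arntl changed less than these, while Npas2, a relative of Clock, rose by 2.20 ± 0.55 from a level of 0.290 CPM (log2 fold change ± SE). Clock measured 95.8, 96.1 and 97.1 CPM against 115, 121 and 123 CPM, and its rise of 0.31 ± 0.07 on the log2 scale (SE, adjusted p = 0.00169) was not called without a filter on low counts (adjusted p = 0.0671). Arntl was not called, at 31.0 ± 2.10 against 27.3 ± 0.927 CPM (SD, n = 3 each), although it was called lower when any pamidronate + GGOH library was left out (adjusted p = 0.0315 to 0.0447). Each group was collected at a single time, so phase and level of the clock cannot be told apart. The 6-base E-box CACGTG, which is its own reverse complement, was found in the promoter windows of 5 of 16 clock genes with a window, Per1, Cry1, Ciart, Bhlhe41 and Tef. It was found in 7.72% of all windows and in 1034 of the 10323 windows of tested genes. The first 4 of these 5 genes were called higher, in a list with 14 of 20 higher. Per2, Nr1d1, Nr1d2, Bhlhe40 and Rora, which also rose, were not among the 5. The E-box was in 8.85% of windows of genes called at least 2-fold higher and in 9.70% of those not called. Tef was not called, but it was called higher with upper-quartile scaling (adjusted p = 0.0154) and with the stricter filter (adjusted p = 0.028). The 250 bases before the start of Per1 (chr11:69098699-69098948, plus strand) and Cry1 (chr10:85185055-85185304, minus strand) are shown with the E-box in capitals, since these are 2 of the repressors that rose (GRCm38.p6, RefSeq).
Per1: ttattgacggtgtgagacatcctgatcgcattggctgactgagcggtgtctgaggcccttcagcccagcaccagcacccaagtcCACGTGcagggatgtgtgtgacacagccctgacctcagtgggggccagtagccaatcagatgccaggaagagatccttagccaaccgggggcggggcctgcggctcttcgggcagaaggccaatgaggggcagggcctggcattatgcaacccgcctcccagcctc
Cry1: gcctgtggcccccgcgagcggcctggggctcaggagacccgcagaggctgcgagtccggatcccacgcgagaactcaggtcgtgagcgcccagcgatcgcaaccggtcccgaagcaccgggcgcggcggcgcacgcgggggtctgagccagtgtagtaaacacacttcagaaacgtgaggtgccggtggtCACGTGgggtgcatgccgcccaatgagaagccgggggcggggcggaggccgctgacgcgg

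Endoplasmic reticulum chaperones are controlled together in the unfolded protein response, but here they moved unequally. Of 30 members tested 9 rose and 9 fell, with a median of 0.05. Hspa5, the chaperone BiP, measured 215, 224 and 264 CPM in the controls and 988, 1118 and 1248 CPM with pamidronate. Hsp90b1, the chaperone GRP94, measured 568, 628 and 745 CPM against 665, 733 and 728 CPM. Calr, the lectin chaperone calreticulin, measured 471, 580 and 759 CPM against 782, 915 and 852 CPM. Hspa5 was thus far apart between groups, Hsp90b1 overlapped, and Calr lay just apart. The log2 fold change was 2.25 ± 0.16 for Hspa5 (SE, adjusted p = 7.56e-08) and 0.13 ± 0.11 for Hsp90b1 (SE, adjusted p = 0.293, interval -0.10 to 0.37). Hsp90b1 was called higher with upper-quartile scaling (0.33, adjusted p = 0.0111) and with the stricter filter (0.28, adjusted p = 0.0317). For Calr it was 0.49 ± 0.15 (SE, adjusted p = 0.00789), and leaving out control replicate 2 ended the call (adjusted p = 0.0549).

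Dnajb9, a cofactor of Hspa5, rose 4.50-fold and Ern1, the sensor IRE1, rose 1.96-fold. Xbp1, the factor whose message Ern1 splices, fell from 206 ± 8.69 to 104 ± 10.9 CPM (SD, n = 3 each), and gene counts do not separate its spliced form. Canx, the membrane lectin calnexin, fell by 0.49 ± 0.09 (SE), and Pdia6, a disulfide isomerase, was not called (adjusted p = 0.0759). It was called higher without control replicate 3 (adjusted p = 0.0114), with the stricter filter (0.00939) and with upper-quartile scaling (0.00274). With upper-quartile scaling the list had 14 members higher and 5 lower. The endoplasmic reticulum stress element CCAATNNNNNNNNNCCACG, searched on both strands, was found in 9 of 24 promoter windows of this list and in 0.147% of all windows. Of those 9 genes 3 were called higher, 1 lower and 5 were not called. The windows of Hspa5 (chr2:34771840-34772089, plus strand), Calr (chr8:84846932-84847181, minus strand) and Hsp90b1 (chr10:86705445-86705694, minus strand) are shown because genes with the same element differed in the size of their fold change. Capitals mark the whole element, spacer included, with 1 copy before Hspa5, 1 on the reverse strand before Calr, and 2 before Hsp90b1 (GRCm38.p6, RefSeq).
Hspa5: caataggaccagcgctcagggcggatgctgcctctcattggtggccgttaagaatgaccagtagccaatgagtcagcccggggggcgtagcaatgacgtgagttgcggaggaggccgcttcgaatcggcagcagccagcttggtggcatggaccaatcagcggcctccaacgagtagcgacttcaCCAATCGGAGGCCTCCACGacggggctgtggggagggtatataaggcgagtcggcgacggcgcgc
Calr: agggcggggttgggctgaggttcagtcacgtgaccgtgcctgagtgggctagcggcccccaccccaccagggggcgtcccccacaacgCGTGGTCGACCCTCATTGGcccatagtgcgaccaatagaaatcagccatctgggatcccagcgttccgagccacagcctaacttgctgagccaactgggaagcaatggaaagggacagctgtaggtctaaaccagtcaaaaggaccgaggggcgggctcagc
Hsp90b1: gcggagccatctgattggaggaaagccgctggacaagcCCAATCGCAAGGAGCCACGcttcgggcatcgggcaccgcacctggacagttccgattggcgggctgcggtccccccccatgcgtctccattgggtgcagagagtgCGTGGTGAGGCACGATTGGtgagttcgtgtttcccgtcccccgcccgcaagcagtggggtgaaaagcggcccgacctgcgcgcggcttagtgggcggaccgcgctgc

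The integrated stress response list had 10 of 20 higher and 4 lower. Ddit3, the factor CHOP, measured 23.9, 17.9 and 13.1 CPM in the controls and 125, 132 and 142 CPM with pamidronate, with exons that overlap the opposite-strand gene Mars. Ppp1r15a, the phosphatase subunit GADD34, measured 17.1, 15.8 and 13.2 CPM against 71.7, 78.3 and 92.7 CPM. Eif2b2, a subunit of the exchange factor this response inhibits, measured 30.4, 31.8 and 28.7 CPM against 176, 184 and 187 CPM. All 3 rose at least 5-fold. The amino acid and tRNA charging genes that this response is known to raise were mixed. Amino acid supply had 14 of 25 lower and 7 higher, and tRNA synthetases had 9 of 20 lower and 5 higher, or 7 and 7 with upper-quartile scaling. Asns, the asparagine synthetase, fell by 0.50 ± 0.10 (SE), Vars, the valyl-tRNA synthetase, fell 5.23-fold, and Cars, the cysteinyl-tRNA synthetase, rose 1.69-fold. Shmt2 and Aldh18a1, mitochondrial enzymes of serine and proline metabolism, fell 4.19-fold and 3.89-fold.

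Proteasome subunits had 18 of 43 lower and 11 higher, with a median of -0.13. With upper-quartile scaling 12 were lower and 21 higher, with a median of 0.06. Psmb6, a catalytic subunit of the standard proteasome, measured 94.0, 86.1 and 87.9 CPM in the controls and 238, 255 and 273 CPM with pamidronate. Of the other standard catalytic subunits, Psmb5 fell by 0.46 ± 0.11 (log2 fold change ± SE, adjusted p = 0.00131) and Psmb7 was not called (adjusted p = 0.155). Psmd8, of the regulatory particle, rose 2.56-fold. The inducible subunits that replace the catalytic ones in the immunoproteasome fell, Psmb8 by 1.44 ± 0.14, Psmb9 by 1.07 ± 0.20 and Psmb10 by 1.31 ± 0.21 on the log2 scale (SE). Psme1, of the interferon-induced cap, fell by 1.13 ± 0.13 (SE). Cytosolic chaperones had 16 of 32 lower and 9 higher, or 12 and 11 with upper-quartile scaling. Hsp90ab1, the constitutive HSP90, fell from 1112 ± 34 to 503 ± 23.1 CPM (SD, n = 3 each).

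Osteoclast genes did not move as a block. In the list of osteoclast fusion, signalling and resorption 16 of 31 fell and 11 rose, or 12 and 13 with upper-quartile scaling. Tnfrsf11a, which encodes RANK, the receptor for RANKL, measured 141, 138 and 110 CPM in the controls and 55.2, 51.7 and 47.7 CPM with pamidronate. Car2, the carbonic anhydrase that supplies protons, measured 827, 910 and 1223 CPM against 180, 155 and 118 CPM. Atp6v0d2, the osteoclast form of a proton pump subunit, measured 56.4, 63.0 and 55.3 CPM against 282, 329 and 204 CPM. The receptor and Car2 were lower and the pump subunit higher in all treated libraries. Clcn7, the chloride exchanger that works with the pump, rose 3.71-fold. Among V-ATPase subunits 10 of 21 rose and 6 fell, with Atp6v1h and Atp6v1d, of the cytosolic domain, 3.01-fold and 2.54-fold higher. Jdp2, an AP-1 family factor of osteoclast differentiation, fell 5.99-fold.

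Lysosomal hydrolases and membrane proteins were mostly lower, with 33 of 46 lower and 6 higher and a median of -0.79. Asah1, the acid ceramidase, measured 143, 157 and 151 CPM in the controls and 26.7, 24.7 and 27.9 CPM with pamidronate. Man2b1, the lysosomal alpha-mannosidase, fell 6.58-fold. Exceptions were Gla, the alpha-galactosidase, at 48.0 ± 3.72 against 140 ± 5.86 CPM, and Mcoln1, the calcium channel of lysosomes, at 61.2 ± 1.53 against 135 ± 9.04 CPM (SD, n = 3 each). Mitf and Tfe3, which drive lysosomal genes, fell by 1.98 ± 0.15 and 1.24 ± 0.11 (log2 fold change ± SE). Fnip2, a partner of folliculin in that control, rose 3.07-fold, and Sqstm1, the autophagy receptor p62, rose 3.01-fold with exons that overlap the opposite-strand gene Mrnip.

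Targets of the oxidative stress factor NRF2 and glutathione enzymes had 23 of 36 lower and 4 higher, with a median of -0.66. Gsr, the glutathione reductase, measured 97.7, 88.4 and 88.6 CPM in the controls and 24.3, 23.5 and 18.1 CPM with pamidronate. Gpx1, a glutathione peroxidase and selenoprotein, fell 3.60-fold, while Hmox1, the heme oxygenase of the same list, rose 4.28-fold. Selenoproteins and their factors had 15 of 28 lower and 7 higher. Glycolysis had 22 of 34 lower and 6 higher. Pfkl, a phosphofructokinase, fell from 78.7 ± 2.83 to 20.4 ± 0.226 CPM, and Eno2, the neuronal form of enolase, rose from 53.7 ± 17.6 to 200 ± 30.1 CPM (SD, n = 3 each). Of 75 nuclear subunits of oxidative phosphorylation 38 fell and 3 rose, or 30 and 13 with upper-quartile scaling. Of 27 mitochondrially encoded RNAs 25 fell and 1 rose.

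Targets of p53 had 18 of 34 higher and 10 lower, with a median of 0.52. Trp53 itself fell by 1.07 ± 0.17 (log2 fold change ± SE, adjusted p = 0.000214). Its ligase Mdm2 measured 157, 177 and 160 CPM in the controls and 431, 473 and 364 CPM with pamidronate. Mdm4, the partner that restrains p53, measured 161, 153 and 141 CPM against 552, 596 and 590 CPM. Both inhibitors were higher in every treated library. Gadd45b, a stress-induced growth inhibitor, rose 11.7-fold and Bbc3, the death factor PUMA, rose 2.42-fold. Bid, a death factor cut by caspases, fell 3.46-fold, with exons that overlap the opposite-strand Bcl2l13. The BCL2 family was even, with 6 of 20 higher and 6 lower (9 and 6 with upper-quartile scaling), while caspases, IAPs and necroptosis genes had 21 of 31 lower. Cflar, the inhibitor of caspase-8, rose from 156 ± 4.89 to 353 ± 32.9 CPM (SD, n = 3 each).

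DNA replication genes had 25 of 40 lower and 4 higher, and 30 lower without control replicate 1, which lay below the other controls. Mcm3, a subunit of the replicative helicase, measured 55.3, 118 and 159 CPM in the controls and 22.8, 28.0 and 22 CPM with pamidronate. Ccna2 was called lower (log2 fold change -2.50 ± 0.82, SE, adjusted p = 0.031), a call lost without any of control replicates 2 and 3 or the pamidronate replicates and without the filter on low counts (adjusted p = 0.0651 to 0.0966). Ccnd1, the cyclin of G1 phase, did not share that spread, at 329, 385 and 361 CPM against 79.9, 83.0 and 68.3 CPM. Ccnt2, a cyclin of transcription elongation, rose 3.12-fold, and Ccnl1, a cyclin linked to splicing, rose 2.98-fold with exons that overlap Gm37305.

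Factors of mRNA decay were more often higher, with 21 of 42 higher and 7 lower. Zfp36, which encodes TTP and destabilises cytokine messages, rose from 52.6 ± 5.86 to 148 ± 8.41 CPM, while its relative Zfp36l1 fell from 174 ± 15.6 to 72.2 ± 4.04 CPM (SD, n = 3 each). Cnot4, a ubiquitin ligase of the deadenylase complex, rose 2.70-fold. Heterotrimeric G protein subunits, the signal carriers for G protein-coupled receptors, had 13 of 26 lower and 9 higher. Gnai2, an inhibitory alpha subunit, measured 673, 672 and 629 CPM in the controls and 255, 272 and 220 CPM with pamidronate. Gng2, a gamma subunit, which is a prenylated protein, fell 5.87-fold. The arrestins that end receptor signalling both fell, Arrb1 3.67-fold and Arrb2 4.74-fold. P2ry6, the receptor for UDP, measured 328, 322 and 289 CPM against 15.8, 14.2 and 9.79 CPM. Growth factors and secreted signals were more often higher, with 13 of 27 higher, 7 lower and a median of 0.72. Against that direction Igf1 fell 7.05-fold and Tgfb1 3.79-fold. Sema4a, a membrane-bound semaphorin, fell 11.6-fold.

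Levels in the cells given pamidronate with GGOH are set beside these for the genes described, with no test, since the contrasts would share libraries. Hmgcs1, at 24.8 ± 3.20 CPM (SD, n = 3), was below its control mean of 35.5 CPM. Hspa5 measured 348 ± 83.1 CPM and Per2 24.7 ± 6.50 CPM, between the means of the other groups. Ptgs1 measured 59.0 ± 16.4 CPM, a level inside the range of the controls' 53 to 75.6 CPM. Ccl3, at 1630 ± 360 CPM, and Hilpda, at 138 ± 43.9 CPM, were nearer to the pamidronate means. Il1rn, at 528 ± 14.5 CPM, and Slc2a1, the glucose transporter, at 339 ± 57.2 CPM, were above the means of both other groups, which were 47.1 and 328 CPM for Il1rn and 124 and 262 CPM for Slc2a1. Maf, at 3.67 ± 0.846 CPM, was nearer to the pamidronate mean of 2.01 CPM than to the control mean of 35.1 CPM.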

How the data were processed

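The authors deposited raw counts per gene as whole numbers, and TPM values made from the same counts and exon lengths, for libraries made from 300 ng of RNA. Per the submitters' processing notes, reads were trimmed with Trimmomatic 0.36 on build GRCm38, and DESeq is named without a role; which aligner and counter were used, and whether strand was kept, is not given in the sources used here. Without strand, reads of overlapping or antisense genes cannot be told apart; at least 15% of the exon length of Srebf1, Fntb, Hsp90b1, Ccnd1 and Ccna2 overlaps another gene. TPM entered no test.

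Genes were filtered with edgeR's filterByExpr and scaled by TMM. A group-means model took all 9 libraries. Pamidronate was contrasted with control by the quasi-likelihood test of edgeR 4.0.16 in R 4.3.3, with a Benjamini-Hochberg adjusted p under 0.05 as the threshold. Levels are CPM on TMM-scaled libraries, and each SE comes from dividing the size of the log2 fold change by the root of the F statistic. In simulated data of 15963 genes, 50 were changed 1.5-fold, 100 were changed 2-fold and 50 were changed 4-fold, equally up and down. The test recovered 42%, 65% and 82% of these, with 6 unchanged genes called. Far fewer genes changed there than were called here, and without a broad shift. These rates therefore do not describe this comparison and do not test its scaling. Depth was 16444207 to 18957968 counts in the 6 libraries, and p-values and intervals rest on the spread between libraries. Other settings tried were scaling by RLE or upper-quartile factors, a filter of 5 CPM in 3 libraries or none, DESeq2 1.42.0, limma-voom 3.58.1, a fit of the 2 groups, a replicate block, a threshold of 0.01, leaving out each library, and leaving out abundant RNAs. Coordinates are of GRCm38 as the deposited files give them, and promoter windows are RefSeq's on GRCm38.p6, with 10323 tested genes matched.

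The genes, gene lists and tests were chosen with earlier results of these data known. The rule took the 12 highest and 12 lowest called genes of at least 100 CPM, the 8 with the largest gain and loss in CPM, up to 3 in each direction from each list with at least 5 CPM, a fixed set, and the 6 genes closest to 0. A part of the rule on CaaX proteins was not applied, as protein sequences were not used here. Genes outside the rule, chosen after their values were seen, were Actr2, Arhgdia, Arhgdib, Arntl, Asns, Atp6v1d, Bhlhe40, Bhlhe41, Calr, Canx, Ccl4, Ccna2, Ccnd1, Cfb, Cfl1, Clcn7, Clec5a, Clk2, Clock, Cry1, Cry2, Dock8, Dusp4, Ebp, Fnta, Fntb, Gas5, Gnai2, Hsp90b1, Mdm4, Mvk, Nfil3, Npas2, Nr1d1, Nr1d2, Pdia6, Per1, Per3, Pfkl, Ppp1r15a, Psmb5, Psmb7, Psmb9, Psme1, Rce1, Rnu12, Scap, Slc11a2, Snhg1, Srebf1, Srebf2, Tef, Tlr7, Tmsb4x. Results for some items are not reported here.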

Additional observations from a re-analysis of the deposited data

How the results depend on the processing

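Counts of called genes ran from 10207 to 11433 with each library left out, those called higher from 5021 to 5854, those lower from 4917 to 5670, and those at least 2-fold apart from 5719 to 6419. The last count fell to 3219 with the stricter filter, under which fewer genes were tested. The filter moved the scaling as well. With the stricter filter the log2 fold changes of Atp6v0b, Fnta and Rce1 went from 0.007, 0.10 and -0.43 to 0.16, 0.25 and -0.28. With no filter that of Clock went from 0.31 to 0.23. Calls gained or lost with the filter therefore include a shift of scaling. With abundant RNAs left out before scaling, chosen after seeing the data, 10997 genes were called. Same-numbered control and pamidronate libraries did not deviate together (correlations of 0.03, 0.06 and 0.02), so the numbers were not read as pairs, and a replicate block gave 10980 called genes. With upper-quartile scaling the flat genes Afdn, Mindy2, Pcbp1 and Psmd2 turned to log2 fold changes of 0.18, 0.19, 0.19 and 0.19 and were called, as were Atp6v0b and Degs1 at 0.20 each; the scaling's shift of 0.19 is that large. Of 3417 alternatives for the named genes 3371 kept direction and call, 21 lost the call, 21 gained it and 4 were reversed. Cry2, Ebp, Mvk, Nfil3, Npas2, Per3, Psmb5, Psmb7 and Rnu12 were not among the genes these alternatives covered. Of 1005 alternatives for list medians 269 moved by more than the replicate spread of the list's mean level. Precision is limited by 3 libraries a group.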

Other observations

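Some gene groups outside the comparisons above showed no common direction. Zinc finger genes named Zfp had 121 of 333 higher and 102 lower, close to the shares over all genes, with a median of 0.08. With upper-quartile scaling 154 were higher and 78 lower. Solute carriers had 101 of 221 lower and 64 higher, with a median of -0.19 that was 0.01 with upper-quartile scaling. Slc2a1, the glucose transporter of that list, rose from 124 ± 13.5 to 262 ± 15 CPM (SD, n = 3 each). Mitochondrial ribosomal proteins had 26 of 78 lower and 20 higher, and translation factors 16 of 50 lower and 13 higher. With upper-quartile scaling the balance turned, to 15 lower and 25 higher and to 10 lower and 23 higher.

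Other groups had more members lower than higher under TMM scaling. Nucleolar and ribosome biogenesis genes, which make the ribosome's parts, had 21 of 34 lower and 6 higher with a median of -0.35, or 12 lower and 10 higher with upper-quartile scaling. Genes of sphingolipid and ceramide metabolism had 15 of 30 lower and 6 higher, or 11 and 9 with that scaling. Interferon and nucleic acid sensing genes had 19 of 39 lower and 10 higher, or 17 and 14. Genes of MHC class I presentation had 10 of 22 lower and 6 higher, or 5 and 6. Genes of the nuclear lamina and envelope had 13 of 21 lower and 5 higher with a median of -0.62.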
